A study of Mus musculus with 8 samples.

Results

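The genes described here are the longest in the mouse tables: every gene whose span, from the start to the end of the gene on mm9, reached at least 500 kb in the LT-HSC table, joined to the MPP table by Ensembl identifier. Mecom, Ptprd and any gene whose symbol starts with Col were left out, which removed 2 of 206 genes. This gave 204 genes of 19685 listed for LT-HSC and 18904 listed for MPP, and each of the 204 was in both tables. Their spans ran from 502 to 4435 kb with a median of 715 kb and a quartile range of 566 to 997 kb, 174 Mb in all. Only span chose the members. In the gene models of GENCODE M21 (199 of the 204 matched by identifier) the median exonic length was 9.81 kb and the median exonic share of the span was 1.21%.

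Genes of this size consist almost entirely of introns, which are transcribed and then spliced out, so a mature poly(A) transcript carries a very small portion of the gene's length. Many such genes work in neurons, where they encode adhesion molecules, ion channels and synaptic scaffolds, while others, such as the signalling genes Elmo1 and Pde4b, are used in blood cells. Span and exonic length are therefore separate properties of such a gene.

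The study sequenced poly(A)-selected RNA as paired 50 bp reads from sorted mouse bone marrow cells of strain CD57BL/6 (spelled as labelled). The long-term stem cells of blood (LT-HSC), which sustain its formation, and multipotent progenitors (MPP), which arise from them, were taken from mice given a transplant of wild-type (WT) or Tet1 knockout (KO) bone marrow 20 weeks before, at an age given as 6 months. Tet1 encodes an enzyme that oxidizes methylated cytosine in DNA. Each combination of population and genotype had 2 libraries, 4 groups in all, made from 10000 LT-HSC or 100000 MPP. All groups share the transplant. The sort gates, the deleted part of Tet1 and any separation of donor from host cells are not described in the labels. Nor do the labels say that the 2 libraries of a group came from separate animals, so the spread behind each p-value is that of these samples alone and may be technical.

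Total counts were 4976459 to 5479731 per LT-HSC library and 11928659 to 12504581 per MPP library. In LT-HSC the WT libraries held 332 and 428 Tet1 counts and the KO libraries 336 and 379, so Tet1 does not separate the labels there. In MPP the WT libraries held 1207 and 1323 and the KO libraries 765 and 855. KO below means the libraries labelled KO. All 9 LT-HSC markers checked were detected in each library, and their summed level was 2346 and 2351 CPM (counts scaled to library size) in LT-HSC WT against 1644 and 1643 in LT-HSC KO. A list of 10 erythroid markers was at 1368 and 1220 CPM in LT-HSC WT and 5034 and 4278 in KO, and 7 bone and stromal markers at 18.8 and 16.9 CPM against 154 and 134. The 4 Y-linked genes checked summed to 143 and 177 CPM in LT-HSC WT against 12.3 and 14.4 in KO, and to 166 and 174 against 2.88 and 5.56 in MPP. The sex of the mice is not given, and a difference in sex cannot be told apart from genotype here.

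The RefSeq promoters of the members were first compared by their CG dinucleotides, the letters that DNA methylation and TET enzymes act on. A window of 300 bases around the RefSeq start (GRCm38.p6) was found for 159 of the 204 genes. At least 10 CG dinucleotides stood in 110 of them (69.2%), beside 43.5% of the 32851 promoters of the same table. Each member gave a single window, while the 32851 promoters were not reduced to a single one per gene. CG reads the same on both strands. This is a property of the reference sequence, and no methylation was measured here. One member that was dense in every group, Elmo1 (chr13:20090257-20090556, plus strand), and a member with one of the largest rises in LT-HSC KO, Kcnd2 (chr6:21215096-21215395, plus strand), are shown with each CG in capitals. They hold 21 and 26 such pairs.
Elmo1: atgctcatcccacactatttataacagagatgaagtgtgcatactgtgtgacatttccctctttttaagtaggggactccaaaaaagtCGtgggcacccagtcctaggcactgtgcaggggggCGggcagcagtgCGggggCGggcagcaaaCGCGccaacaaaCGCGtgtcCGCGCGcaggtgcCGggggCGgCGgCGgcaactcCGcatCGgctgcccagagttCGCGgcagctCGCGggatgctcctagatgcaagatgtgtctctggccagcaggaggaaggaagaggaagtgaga
Kcnd2: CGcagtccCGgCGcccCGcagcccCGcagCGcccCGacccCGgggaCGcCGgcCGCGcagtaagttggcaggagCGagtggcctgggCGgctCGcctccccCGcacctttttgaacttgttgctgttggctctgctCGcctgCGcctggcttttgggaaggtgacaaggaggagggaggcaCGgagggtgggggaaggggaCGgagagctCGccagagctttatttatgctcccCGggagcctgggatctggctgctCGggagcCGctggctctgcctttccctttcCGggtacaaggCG

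The first question was how many reads these genes carried for their length. In LT-HSC, 190 of the 204 had a higher mean density in KO than in WT, with a median ratio of 5.40 and quartiles of 1.90 and 10.9, and the lowest ratio was 0.628. The 57 genes whose density was at least 5 times the member median in both libraries of at least 1 group had a median ratio of 1.38. The median member had 0.0768 and 0.0691 counts per kb of span in LT-HSC WT and 0.451 and 0.384 in LT-HSC KO. It had 0.0807 and 0.0801 in MPP WT and 0.0925 and 0.105 in MPP KO. Both LT-HSC KO libraries stand above the other 6, which lie close together although the MPP libraries are deeper.

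Scaled to the total count of each library, the median density was 0.0139 ± 9.47e-05 CPM per kb in LT-HSC WT and 0.0800 ± 0.00585 in LT-HSC KO (SD, n = 2 libraries each). The KO median was 5.74 times the WT median, and between 5.41 and 6.06 times over the 4 pairs of libraries. In MPP the values were 0.00671 ± 7.88e-05 in WT and 0.00795 ± 0.000784 in KO (SD, n = 2 libraries each), a ratio of 1.18 with a range over pairs of 1.09 to 1.28. WT LT-HSC stood at 2.08 times WT MPP. With 2 libraries against 2, an exact permutation test cannot give a two-sided p below 0.333, so no test of these medians is given. A density pooled over all members, which the densest genes dominate, gave ratios of 1.65 in LT-HSC and 0.959 in MPP.

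**Figure D1:**
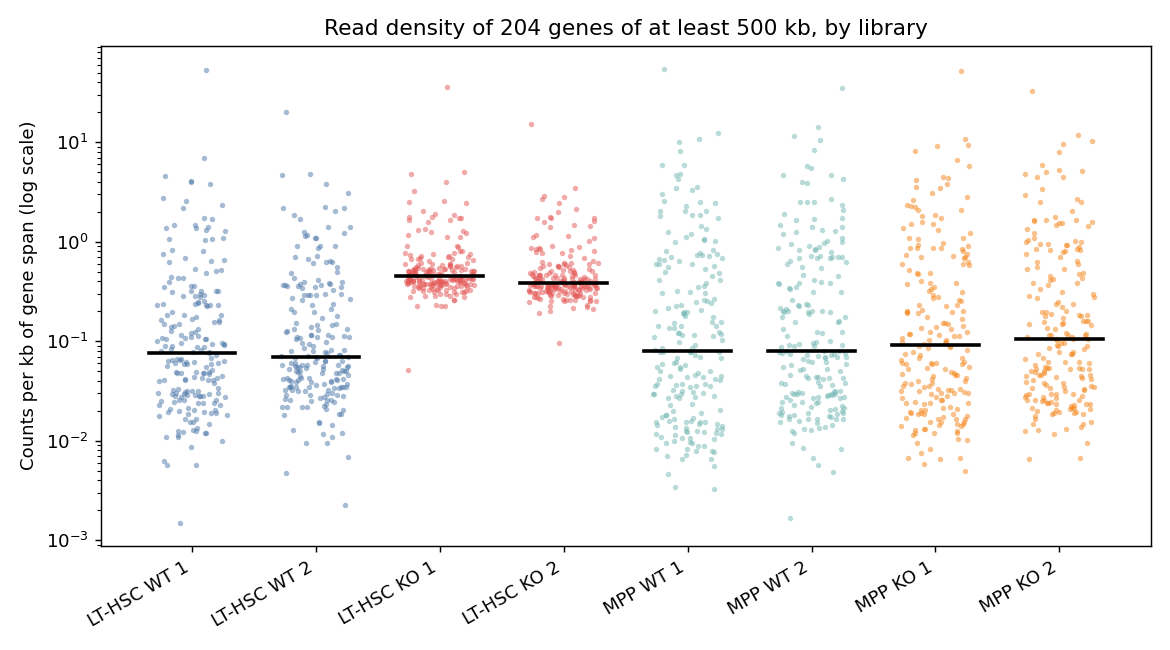
Counts per kb of gene span on a log axis for the 204 genes in each of the 8 libraries. Each point is a gene and each bar is the library's median, and the single count of 0, Kcnd2 in LT-HSC WT replicate 1, is drawn at 0.0015. In the LT-HSC KO libraries the middle of the points is narrow (quartiles 0.380 to 0.597 and 0.326 to 0.527). Their whole range is 0.0510 to 36.2 and 0.0964 to 15.2. In the other libraries the lowest density is 0 to 0.00660 and the highest 20.3 to 55.0.

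The spread among the middle genes changed with the level. The upper quartile of density was 8.83 and 8.32 times the lower quartile in the LT-HSC WT libraries and 1.57 and 1.62 times in LT-HSC KO. In the 4 MPP libraries it was 17.0 to 27.7 times. The 2 LT-HSC KO libraries thus had the narrowest quartile range of the 8.

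Genes of other lengths were taken as a reference. In LT-HSC the median density of genes under 10 kb was 0.950 times as high in KO as in WT, that of genes of 10 to 100 kb 1.00 times and that of genes of 100 to 500 kb 1.80 times. In MPP the same ratios were 0.916, 0.977 and 1.12. The ratio thus rose with the length class in both populations, and went further in LT-HSC. The 3 genes just inside the limit were Edil3, Dock1 and Car10 and the 3 just outside were Abca13, Ank3 and Dnm3. Edil3 (501751 bases) had 0.110 and 0.116 counts per kb in LT-HSC WT and 0.395 and 0.423 in KO. Dock1 (502952 bases), which activates the GTPase Rac, had 1.49 and 1.09 in WT and 1.12 and 0.853 in KO, and Car10 (503721 bases) had 0.00993 and 0.0119 against 0.336 and 0.294. Outside, Abca13 (492317 bases) had 0.142 and 0.0630 counts per kb in WT and 0.360 and 0.357 in KO. Ank3 (493214 bases) had 0.00811 and 0.0345 against 0.168 and 0.280, and Dnm3 (495581 bases) had 0.0605 and 0.0726 against 0.343 and 0.369. In LT-HSC KO the density of 5 of these 6 genes lay between 0.168 and 0.423, and Dock1 lay above.

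**Figure D2:**
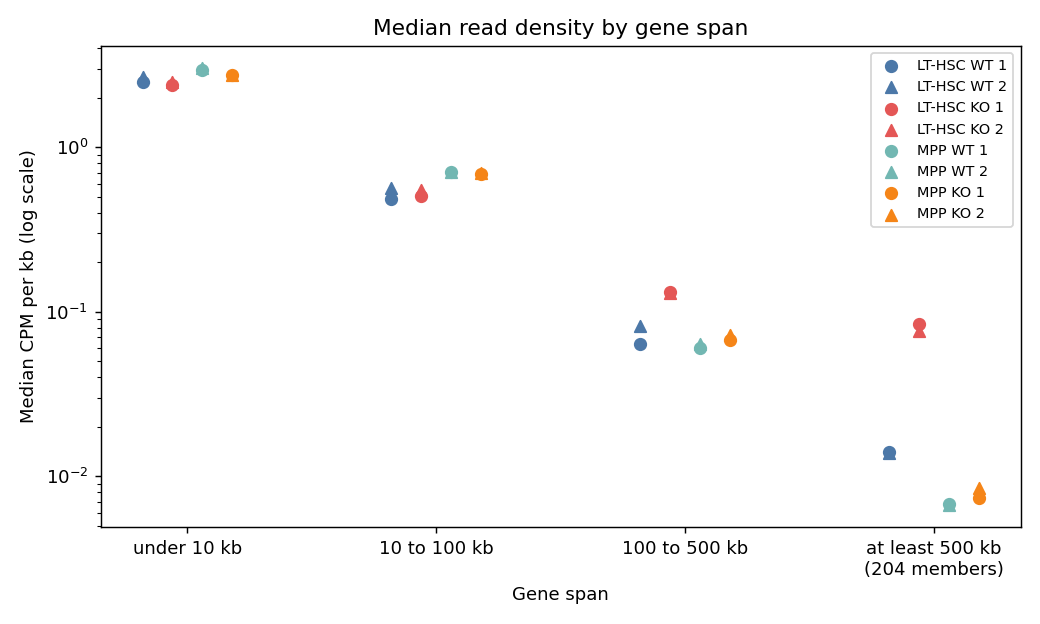
Median CPM per kb on a log axis by gene span, with 1 marker per library (circles replicate 1, triangles replicate 2). The 4 groups lie together below 100 kb, and at 500 kb and above the LT-HSC KO medians of 0.0841 and 0.0758 stand above the LT-HSC WT medians of 0.0140 and 0.0139.

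A gene was said to depart from the others in a group when its density was at least 5 times the member median in both libraries. In LT-HSC WT 37 members departed upward and in LT-HSC KO 6. The bar moves with the member median, which was 0.0139 CPM per kb in LT-HSC WT and 0.0800 in LT-HSC KO. A member can thus stop departing in KO without a lower density of its own. In MPP WT 55 departed and in MPP KO 54. The same density was reached by 67.4%, 53.7%, 77.8% and 77.3% of all listed genes in the same order of groups, since shorter genes have more reads per kb. In all, 57 members departed in at least 1 group and 147 in none. Of the 57, 30 departed in every group except LT-HSC KO, 6 in all 4 groups, 17 in both MPP groups alone and 4 in 1 group alone (Cadps2, Rora, Cdh18 and Cntnap2). Departure downward, to at most 0.2 of the median in both libraries, was found for 8 members in LT-HSC WT, 0 in LT-HSC KO, 16 in MPP WT and 13 in MPP KO.

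The 6 members that departed in all 4 groups were Gm16724, Celf2, Pde4b, Elmo1, Cntnap5b and Gm20388. Gm16724 (ENSMUSG00000085916, chromosome 17, 71227418 to 71742624), a predicted gene without a match in GENCODE M21, was the densest. It had 27653 and 10455 counts in LT-HSC WT, 18634 and 7821 in LT-HSC KO, 28343 and 18070 in MPP WT and 26804 and 17064 in MPP KO. Replicate 1 was above replicate 2 in each group, and the genotypes overlapped in both populations (log2 fold change KO over WT -0.52, SE 0.48, adjusted p = 0.448 in LT-HSC). That value rests on single libraries: it was 0.30 without WT replicate 1 (adjusted p = 0.433) and -1.10 without WT replicate 2 (0.00049), and -1.27 without KO replicate 1 (0.145) and -0.03 without KO replicate 2 (0.975).

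Celf2 (ENSMUSG00000002107, chromosome 2, 6460751 to 7002348) encodes an RNA-binding protein that regulates splicing. Its counts were 2140 and 2531 in LT-HSC WT, 1359 and 1574 in LT-HSC KO, 6722 and 7661 in MPP WT and 5819 and 6446 in MPP KO. Its density was 51.5 and 67.7 times the member median in LT-HSC WT and 5.57 and 7.57 times in LT-HSC KO. The member median was itself 5.74 times as high in LT-HSC KO as in WT, while the log2 fold change of Celf2 was -0.67. Elmo1 (ENSMUSG00000041112, chromosome 13, 20182488 to 20698397), which acts with DOCK proteins to activate Rac in cell migration and engulfment, had 1972 and 1980 counts in LT-HSC WT, 1324 and 1399 in LT-HSC KO, 5182 and 5477 in MPP WT and 4821 and 5243 in MPP KO. Both genes had fewer counts in each LT-HSC KO library than in either WT library.

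Pde4b (ENSMUSG00000028525, chromosome 4, 101760148 to 102279864), a phosphodiesterase that breaks down cyclic AMP, had 2116 and 2494 counts in LT-HSC WT and 1691 and 1825 in KO. Its MPP counts were 5625 and 5956 in WT and 4758 and 4964 in KO. The KO libraries were lower in both populations, but neither difference passed the test (log2 -0.39 in LT-HSC, adjusted p = 0.109, and -0.23 in MPP, adjusted p = 0.125). Cntnap5b (ENSMUSG00000067028, chromosome 1, 101669342 to 102382519), of a family of contactin-associated cell surface proteins, had 3256 and 2187 counts in LT-HSC WT, 2863 and 2004 in LT-HSC KO, 4233 and 4128 in MPP WT and 4704 and 4237 in MPP KO. The genotypes overlapped in LT-HSC.

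Gm20388 (ENSMUSG00000092329, chromosome 8, 122434741 to 126869622), a predicted gene, is the longest member at 4434881 bases. GENCODE M21 places 71 protein-coding genes within it, and 0 of these are listed in the LT-HSC table. This holds for the whole LT-HSC table, where 0 listed genes lie wholly inside another listed gene by the deposited coordinates. How the authors' counting assigned reads of such nested genes is not stated in the labels. Whether the counts of Gm20388 are those of a single gene was not tested. Its counts were 4805 and 3996 in LT-HSC WT, 21251 and 10765 in LT-HSC KO, 4811 and 4441 in MPP WT and 4829 and 4123 in MPP KO. Both LT-HSC KO libraries were above the other 6, with KO replicate 1 far above replicate 2, and the log2 fold change was 1.86 (SE 0.31, adjusted p = 0.00262). The next longest, Fgfr2, a fibroblast growth factor receptor gene (3009068 bases in the deposited table), holds 29 protein-coding genes in GENCODE M21. Of these too, 0 are listed in the LT-HSC table. It had 7054 and 3691 counts in LT-HSC WT and 5654 and 3493 in KO, with overlapping genotypes (log2 -0.23, adjusted p = 0.625, and -0.66 without WT replicate 2, adjusted p = 0.0297). Of members with a GENCODE M21 match, 6 of the 55 that departed and 19 of the 144 that did not held a nested protein-coding gene. The M21 span was under 80% of the deposited span for 5 matched members and over 120% for 6. Gm15710 (868954 bases deposited, 635 in M21), Arfip1 (1391423 and 86532) and Arhgap26 (774750 and 383139) departed in at least 1 group. Their densities rest on the deposited span, and which span applies was not tested.

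The 12 densest members by the naming rule also included Foxp1, Lpp, Vps13b, Kalrn, Rabgap1l, Arhgap15 and Trpm3. Foxp1, a forkhead transcription factor of blood and other tissues, had 1553 and 1334 counts in LT-HSC WT and 1128 and 967 in KO, a log2 fold change of -0.46 (adjusted p = 0.0618). It passed with RLE size factors (adjusted p = 0.0492) and without WT replicate 2 (0.031). Lpp, a focal adhesion gene, had 1298 and 1318 counts in LT-HSC WT against 1227 and 1039 in KO. Vps13b, a lipid transport gene of the Golgi, had 948 and 1047 against 934 and 1121. Of these, the KO libraries lay wholly below WT for Foxp1 and Lpp and overlapped WT for Vps13b.

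Kalrn, a gene of neuronal signalling, had 1664 and 1305 counts in LT-HSC WT against 1485 and 1045 in KO, and Rabgap1l, a Rab GTPase-activating gene, 815 and 967 against 940 and 1007. Arhgap15, a GTPase-activating gene for Rac, had 443 and 594 counts in LT-HSC WT against 488 and 535 in KO. Trpm3, a cation channel gene, had 1461 and 1749 counts against 1522 and 1827. These 4 genes overlapped between genotypes, with log2 fold changes between -0.23 and 0.13 in LT-HSC, and 0 of the 4 passed the test there.

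**Figure D3:**
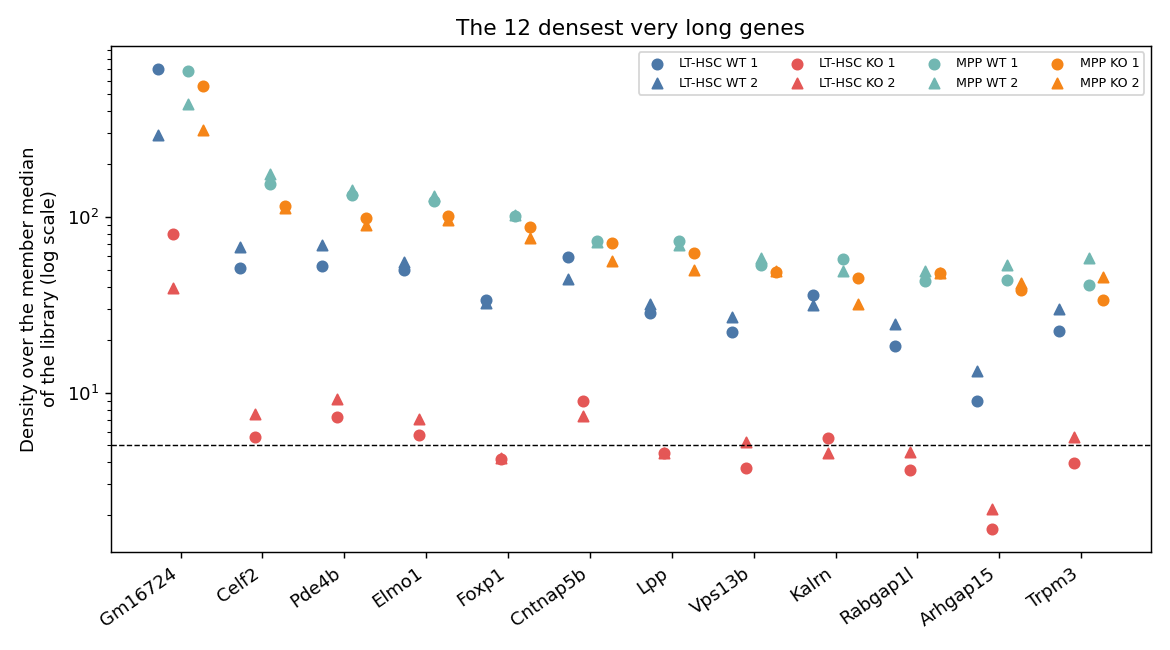
Density of the 12 densest members over the member median of the same library, on a log axis, with 1 marker per library (circles replicate 1, triangles replicate 2). The dashed line marks 5 times the median. All 12 lie above it in LT-HSC WT and in both MPP groups. In LT-HSC KO, where the member median is higher, only Gm16724, Celf2, Pde4b, Elmo1 and Cntnap5b do so in both libraries.

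By role, departing members were found most often among genes of general cell maintenance, with 14 of 24 (such as Lpp, Vps13b, Exoc4 and Wwox). Transcription, chromatin and RNA-binding genes had 6 of 14 (Zbtb20, Celf2, Camta1, Foxp1, Sox6 and Rora), signalling genes 9 of 26 and the members on no list 17 of 52. Cytoskeleton and matrix genes had 2 of 9, synaptic adhesion and neuronal surface genes 7 of 47, and channels and synaptic machinery 2 of 32. The median density of the synaptic adhesion genes was 0.00815 CPM per kb in LT-HSC WT and 0.0742 in LT-HSC KO. That of the maintenance genes was 0.0655 and 0.104. These 2 role groups lay closer to each other in KO than in WT. In promoters, at least 10 CG dinucleotides stood in 31 of 46 departing members (67.4%) and 79 of 113 others (69.9%).

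Summed over the 147 members that departed in no group, the share of all counts was 0.163% ± 0.00824 in LT-HSC WT and 0.938% ± 0.0672 in LT-HSC KO (SD, n = 2 libraries each). It was 0.0853% ± 0.00468 in MPP WT and 0.0872% ± 0.00710 in MPP KO. Each of the 147 had a higher mean density in LT-HSC KO than in WT, by a median of 0.0621 CPM per kb (quartiles 0.0512 and 0.0707, range 0.0135 to 0.108). The ratio of KO to WT had a median of 8.35 (quartiles 4.85 and 12.8, range 1.49 to 58.5). These 147 were picked by density in the same libraries, so the values describe them and test nothing.

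The count was then set against span. Over all 204 members the rank correlation of count with span was 0.476 and 0.477 in the LT-HSC KO libraries, 0.102 and 0.0819 in LT-HSC WT and 0.0181 to 0.0348 in MPP. Over the 147 genes, which were picked by their density and so by count over span in the same libraries, it was 0.819 and 0.817 in the LT-HSC KO libraries, 0.389 and 0.355 in LT-HSC WT and 0.246 to 0.270 in MPP. With exonic length, the correlation over all members with a model (199) was 0.132 and 0.140 in LT-HSC KO. It was 0.159 and 0.156 in LT-HSC WT and 0.0912 to 0.127 in MPP, above the correlation with span in those libraries. Over the 147 genes (144 with a model) the correlation with exonic length was 0.0245 and 0.0270 in LT-HSC KO and 0.127 and 0.123 in LT-HSC WT. The points of one library share its depth, and genes are not independent replicates. Over the same genes, counts per kb of span had an upper quartile 1.32 and 1.30 times the lower one in LT-HSC KO, and counts per kb of exon 2.13 and 2.26 times. In LT-HSC WT the values were 3.79 and 2.58 per span against 5.42 and 3.67 per exon. In MPP they were 4.51 to 7.84 against 6.01 to 9.15. Over the 147 genes the spread was thus narrower per span in every library, which picking genes by density in part builds in. Over all members it was 1.57 and 1.62 times per span against 2.37 and 2.41 per exon in LT-HSC KO. In LT-HSC WT it was 8.83 and 8.32 against 9.36 and 8.36. In the MPP libraries the spread over all members was wider per span, at 17.0 to 27.7 against 15.2 to 21.5.

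**Figure D4:**
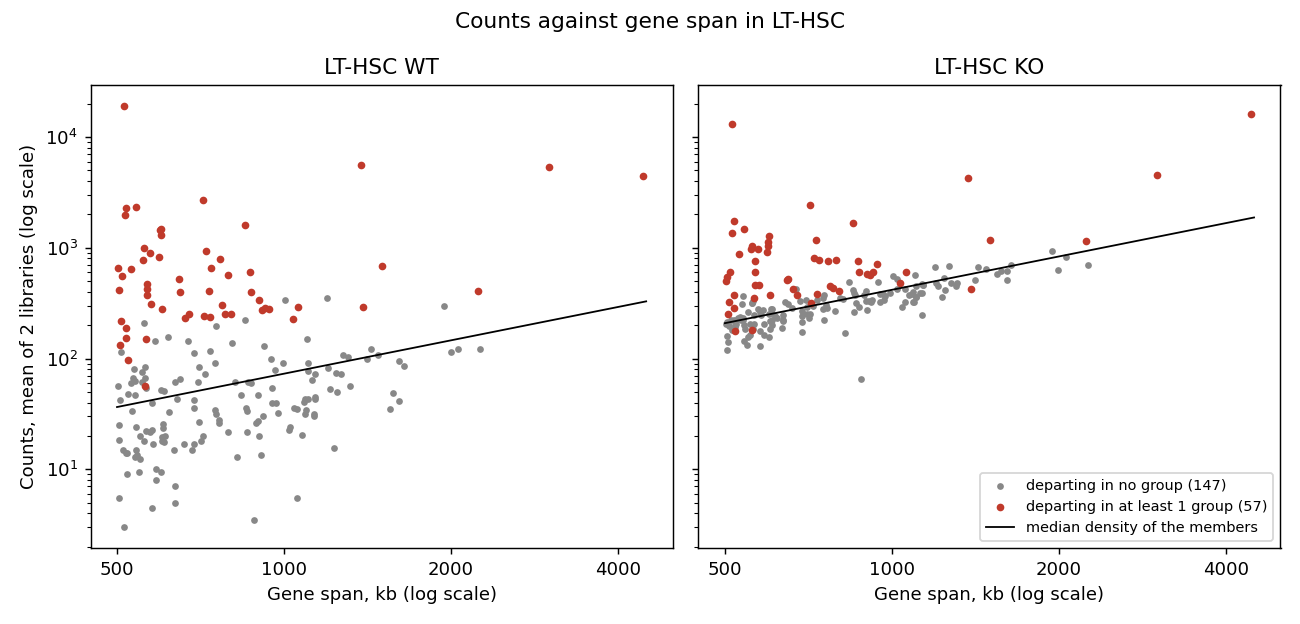
Mean count of 2 libraries against gene span, both on log axes, in LT-HSC WT (left) and LT-HSC KO (right). Grey points are the 147 members that depart in no group, red points the 57 that depart, and the line is the median member density times span. The rank correlation of count with span over all 204 members is 0.476 and 0.477 in the KO libraries and 0.102 and 0.0819 in WT, and over the grey points, which were picked by density, 0.819 and 0.817 in KO and 0.389 and 0.355 in WT.

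KO and WT LT-HSC were then compared over all genes with edgeR's quasi-likelihood test. All 204 members could be tested: 171 were higher in KO and 2 lower, and 31 were not called, with a median log2 fold change of 2.42. Over all 15684 genes tested, 22.5% were higher and 10.9% lower, with a median of 0.03. In CPM, both KO libraries were above both WT libraries for 181 members and below for 7, beside 40.7% and 26.0% of all listed genes. As an alternative, the median member density times span was subtracted from every gene and library, with negative values set to 0. A member below the median of a library thus became 0 there by construction. Fewer calls and very large log2 values follow in part from this, so they are not read as effects. In that fit 103 members could be tested, and 20 were higher and 13 lower. The share of all genes called in it is not given here.

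The 4 largest rises were in genes of the nervous system or RNA binding that were almost without counts in WT. Kcnd2, a potassium channel subunit, had 0 and 6 counts in LT-HSC WT and 192 and 168 in KO, or 5.85 in log2 (SE 0.61, adjusted p = 0.000423). This size depends on the few WT counts: it was 4.84 without WT replicate 1 and 10.48 without WT replicate 2, which leaves a WT count of 0, so the order among these 4 genes is not fixed. Rbms3, an RNA-binding protein gene (1057167 bases), had 6 and 5 against 367 and 275, or 5.84 in log2 (SE 0.33, adjusted p = 6.27e-05). Their KO densities were near the median of the members: 0.829 and 0.851 times it for Kcnd2, and 0.770 and 0.678 times for Rbms3. Dscam, a neuronal adhesion gene, had 5 and 4 counts against 308 and 217 (log2 5.83, SE 0.37). Rims1, which organizes presynaptic release sites, had 4 and 6 against 230 and 206 (log2 5.41, SE 0.35). For all 4 genes every KO library was far above every WT library.

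The 2 members that fell were Celf2 (log2 -0.67, SE 0.17, adjusted p = 0.0184) and Elmo1 (log2 -0.53, SE 0.15, adjusted p = 0.0266). Both calls ended without LT-HSC KO replicate 1 (adjusted p = 0.226 and 0.268) or replicate 2 (0.0879 and 0.191), and with the density subtracted (0.0568 and 0.0586), although the log2 fold changes were then -0.67 and -0.54. Without LT-HSC WT replicate 2, 7 members were lower.

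In each role list most members were higher in LT-HSC KO. Of synaptic adhesion and neuronal surface genes 44 of 47 were higher with a median log2 fold change of 3.07, and of channels and synaptic machinery 31 of 32 with 2.75. Cytoskeleton and matrix genes had 8 of 9 higher (median 2.66) and signalling genes 20 of 26 higher and 1 lower (1.33). Transcription and RNA-binding genes had 10 of 14 higher and 1 lower (2.30), maintenance genes 16 of 24 higher (0.89) and genes on no list 42 of 52 higher (2.17). Short genes of neurons were summed for comparison: of the 20 chosen as markers, such as Snap25 and Gad1, 15 were in the table, and their summed level was 33.6 and 30.5 CPM in WT with 7 at 0 in each library, against 43.7 and 45.7 CPM in KO with 0 at 0. The single genes went different ways: both KO libraries were above both WT libraries for 9, such as Slc17a6 (0 and 1 counts against 17 and 27), and below for 4 (Slc17a7, Npy, Eno2 and Uchl1), and 2 overlapped (Nefm, the most abundant, and Syp). Erythroid and stromal markers were also higher in LT-HSC KO, as given above, and their part in these counts was not tested. In bulk samples, fewer cells of a type and less RNA per cell cannot be told apart.

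Members were also split by their density in MPP, in libraries not used in this comparison. The split sorts them by LT-HSC WT density as well: the rank correlation of density between LT-HSC WT 1 and MPP WT 1 was 0.904. Median LT-HSC WT density was 0.131 CPM per kb for members departing in an MPP group and 0.00822 for the rest. A low WT density goes with a larger fold change for the same difference, so the split describes the members and tests nothing. Of the 148 members that departed upward in no MPP group, 147 were higher in LT-HSC KO and 1 was not called, with a median log2 fold change of 3.06. Of the 56 that departed in an MPP group, 24 were higher, 2 lower and 30 uncalled, at a median of 0.45. Over all genes tested 22.5% were higher and 10.9% lower. The median difference in density was 0.0619 CPM per kb for the first set and 0.0360 for the second.

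**Figure D5:**
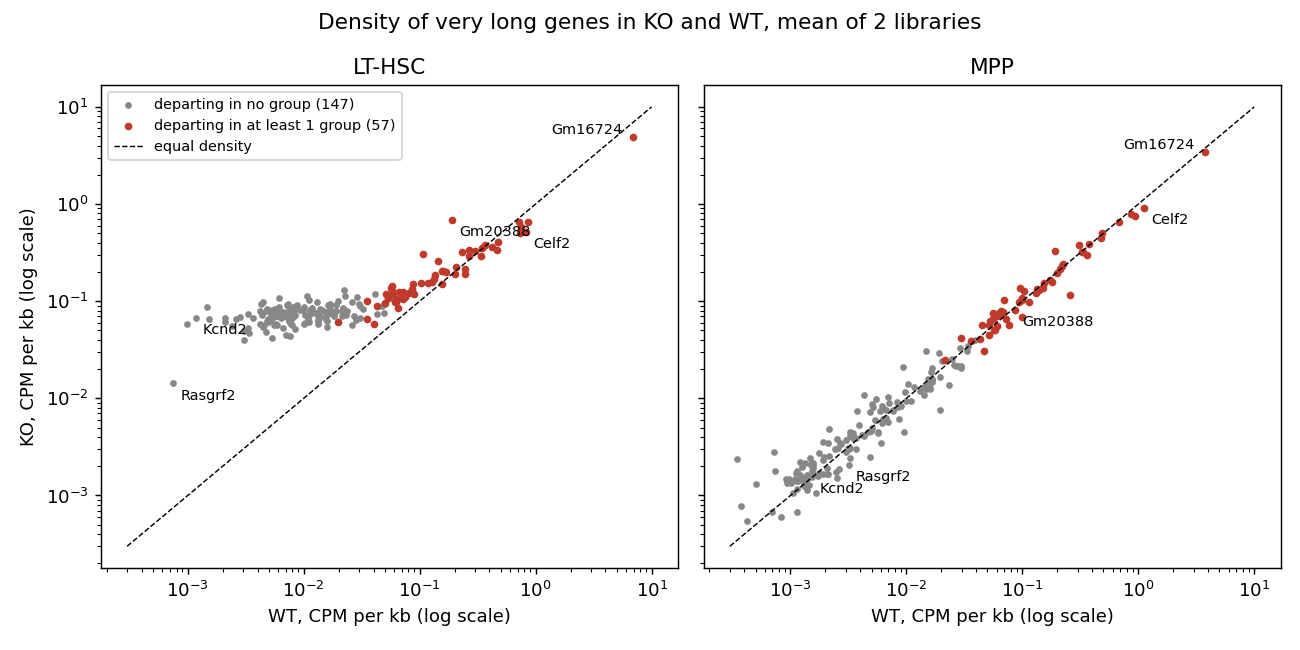
Mean density of each member in KO against WT, both on log axes, in LT-HSC (left) and MPP (right). Grey points depart in no group, red points in at least 1, and the dashed line marks equal density. In LT-HSC the grey points form a level band above the line with a median KO minus WT difference of 0.0621, and in MPP the points lie along the line.

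The 5 members with the lowest density in LT-HSC KO relative to the others were Rasgrf2, Npas3, Opcml, Sox2ot and Kcnma1. Rasgrf2, an exchange factor for Ras, had 5 and 2 counts in WT and 45 and 85 in KO, which is 0.113 and 0.251 times the member median in KO. Its span in the deposited table is 881606 bases and 251256 in GENCODE M21, the model of a later build, 0.285 times as long. Npas3, a brain transcription factor gene, had 9 and 17 counts in WT and 186 and 157 in KO, and Opcml, a neuronal cell adhesion gene (1134635 bases), 24 and 39 against 254 and 244. Sox2ot, a noncoding RNA around Sox2, had 16 and 29 against 132 and 130, and Kcnma1, a calcium-activated potassium channel gene, 21 and 16 against 130 and 107. All 5 were higher in each KO library than in either WT library and passed the test, with log2 fold changes from 2.54 to 4.17.

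Of the 13 X-linked members, 10 were higher in LT-HSC KO, 0 lower and 3 did not pass, beside 161 of 191 autosomal members higher. Dmd, the dystrophin gene of muscle (2257271 bases), had 111 and 131 counts in LT-HSC WT and 756 and 640 in KO, and 131 and 141 in MPP WT against 121 and 155 in MPP KO. It rose by 2.53 on the log2 scale in LT-HSC (adjusted p = 0.000138). Il1rapl2, a relative of the interleukin-1 receptor, had 121 and 93 counts in LT-HSC WT against 510 and 455 in KO (log2 2.17, adjusted p = 0.000279). Il1rapl1, a synaptic receptor gene and the densest X-linked member, had 9564 and 1602 counts in LT-HSC WT, 6891 and 1563 in LT-HSC KO, 6534 and 1952 in MPP WT and 2866 and 1076 in MPP KO. Replicate 1 was several times replicate 2 in every group, and the genotypes overlapped in LT-HSC. Its LT-HSC log2 fold change of -0.40 (adjusted p = 0.735) became 1.35 without WT replicate 1 (adjusted p = 4.26e-06) and -1.22 without WT replicate 2 (1.87e-05).

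Among members that departed in no group, the median density in LT-HSC KO was 0.0708 CPM per kb for the 10 X-linked genes and 0.0736 for the 137 autosomal ones, 0.962 times as high. In LT-HSC WT the X-linked genes stood at 1.32 times the autosomal ones, in MPP KO at 1.74 times and in MPP WT at 1.67 times. The X-linked and autosomal medians were closest in LT-HSC KO. Y-linked markers were lower in KO in both populations, as given above.

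In the comparison of MPP KO with WT few of these genes passed the test, which was run without a replicate block. Of 194 members tested, 4 were higher and 2 lower in KO and 188 were not called, with a median log2 fold change of 0.12, beside 4.74% higher and 2.46% lower of all 14902 genes tested. An unadjusted p under 0.05 was found for 35 members. The share of all genes at that unadjusted level is not given here, so no excess among the members can be read from it. The number of calls depends on the model, since more members passed with the replicate block given below. How many of all genes passed with that block is not given, so whether members differ from other genes there is not shown. Deviations of same-numbered libraries correlated at 0.66 between MPP KO and MPP WT, but the labels name no shared animal or batch. In CPM both KO libraries were above both WT libraries for 47 members and below for 38, beside 21.2% and 35.3% of all listed genes.

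Nbea, a scaffold gene of vesicle traffic, had 111 and 88 counts in MPP WT and 216 and 215 in KO (log2 1.13, SE 0.15, adjusted p = 0.0207). Zbtb20, a zinc finger repressor, had 1570 and 1943 against 2888 and 3430 (log2 0.87, SE 0.14, adjusted p = 0.0325). The genotypes did not overlap for either gene. Syne1, which links the nucleus to the cytoskeleton, had 636 and 585 counts in WT and 843 and 947 in KO (log2 0.57, adjusted p = 0.0381). Mast4, a kinase gene, had 382 and 422 against 557 and 572 (log2 0.51, adjusted p = 0.038).

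The 2 that fell in MPP KO both encode cell surface proteins of neurons. Lphn3, an adhesion receptor, had 202 and 173 counts in MPP WT and 80 and 73 in KO (log2 -1.27, SE 0.15, adjusted p = 0.0144, and -5.27 with the density subtracted). Cdh18, a cadherin, had 515 and 514 against 374 and 340 (log2 -0.51, SE 0.09, adjusted p = 0.0352). In LT-HSC these 2 genes were higher in KO, with counts of 186 and 92 in WT against 448 and 249 in KO for Lphn3 and of 295 and 271 against 650 and 554 for Cdh18. Each of these 6 MPP calls ended without any 1 of the 4 libraries (adjusted p = 0.0587 to 0.332). Mast4 and Cdh18 also missed the threshold by DESeq2 (0.0626 and 0.0678), and without the filter on low counts 1 member was higher and 1 lower.

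The interaction of population and genotype asks whether KO minus WT differs between LT-HSC and MPP. Of 204 members tested, 139 had a larger KO over WT change in LT-HSC and 65 were not called, with a median of 2.19 on the log2 scale, beside 13.6% of the 16551 genes tested with a larger and 8.5% with a smaller change. By edgeR 0 members had a smaller change and by DESeq2 2. An unadjusted p under 0.05 in either direction was found for 159 members by edgeR, without the share of all genes at that level to set it against. Dscam led with 6.83 (SE 0.40, adjusted p = 0.000187): its counts were 60 and 72 in MPP WT and 34 and 31 in MPP KO, the opposite direction to LT-HSC, though the MPP difference did not pass (adjusted p = 0.0567). Rbms3 followed with 6.50, Kcnd2 with 5.77, Rims1 with 5.31 and Rasgrf2 with 4.74. Their MPP counts were 5 to 39 per library, lower than in either LT-HSC KO library for all 4. The Kcnd2 call ended without MPP WT replicate 2 (adjusted p = 0.0753) and the Dscam call with the density subtracted (0.0747), where its value was larger but less precise (15.22, SE 4.23). The Kcnd2 value was 11.15 without LT-HSC WT replicate 2. With the subtraction 13 members had a larger and 12 a smaller change.

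WT LT-HSC were last set against WT MPP, a comparison in which cell number and depth differ with population and cannot be told apart from it. Of 199 members tested, 94 were higher in LT-HSC, 9 lower and 96 were not called, with a median log2 fold change of 0.95, beside 17.4% higher and 16.9% lower of 14660 genes. Cacna1c, a calcium channel subunit, had 11 and 28 counts in LT-HSC WT against 4 and 1 in MPP WT (log2 4.09, SE 0.78, adjusted p = 0.0111). Magi1, a junction scaffold, had 59 and 42 against 7 and 15 (log2 3.39, SE 0.45, adjusted p = 0.00359), although the MPP libraries were the deeper ones. The synaptic gene Erc2, the nuclear receptor gene Esrrg and the phosphatase gene Ptprk had log2 fold changes of 3.35, 3.15 and 3.03, and that of Ptprk was 7.08 with the density subtracted.

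The 9 members lower in LT-HSC than in MPP included a sodium-proton exchanger gene and a GTPase regulator. Slc9a9, the exchanger, which acts in endosomes, had 33 and 81 counts in LT-HSC WT against 409 and 530 in MPP WT (log2 -1.82, adjusted p = 0.0163), and with the density subtracted its log2 fold change was larger at -3.09 but missed the threshold (adjusted p = 0.0511). The gene deposited under the symbol 1-Mar, a spreadsheet's date form of a gene symbol, had 42 and 30 against 225 and 322 (log2 -1.71, adjusted p = 0.00769, and -10.19 with the density subtracted). Arhgap15 was at -1.06 and Dscam at -2.64. Rasgrf2, at -2.02 (adjusted p = 0.0377), lost its call without LT-HSC WT replicate 2 (adjusted p = 0.0743), MPP WT replicate 1 (0.118) or MPP WT replicate 2 (0.295), without the filter (0.0626) and by DESeq2 (0.103). Without MPP WT replicate 1, 43 members were higher in LT-HSC, without MPP WT replicate 2, 56 were higher and 4 lower, and without the filter 61 were higher. With the density subtracted 17 were higher and 17 lower.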

How the data were processed

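The authors deposited raw counts per Ensembl gene with mm9 coordinates, 1 table per population. CASAVA and TopHat were used with mm9, per the submitters' processing notes; not given in the sources used here are their versions, the read counter, its strand setting and the annotation. Genotype and replicate in the column names tied each count column to its sample, with 0 columns left over. Density is the deposited count divided by the span in kb, also scaled to library size (CPM per kb). Counts were tested with edgeR 4.0.16 in R 4.3.3 (filterByExpr, TMM, quasi-likelihood test, Benjamini-Hochberg adjusted p under 0.05 over all genes), per population for KO against WT, over 8 libraries for the interaction and over the WT libraries for LT-HSC against MPP. DESeq2 1.42.0, RLE size factors, no filter, a replicate block, density subtraction and leaving out each library served as alternatives. Scripts were tested on simulated data. Named genes were the 12 densest members relative to the median, the 5 least dense in LT-HSC KO, the largest called changes (4 rises and all falls in LT-HSC, at most 5 each way elsewhere), the 3 longest, the 3 longest X-linked and the 3 on each side of the span limit. GENCODE M21 (GRCm38) served, by identifier, for exonic length and nested genes only, and RefSeq (GRCm38.p6) for promoters. Members, lists and rules were chosen with earlier results of these data known. With 3 counts as the floor, a gene at 0 could still stand at 0.547 to 0.603 CPM in LT-HSC or 0.240 to 0.251 in MPP, for counting error only.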

Additional observations from a re-analysis of the deposited data

Results flagged for a closer look

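The change from WT to KO differed between LT-HSC and MPP for 139 of the 204 very long genes in the edgeR interaction test. Over all 16551 genes tested, 13.6% had a larger and 8.5% a smaller change in LT-HSC. Dscam differed by 6.83 on the log2 scale, Rbms3 by 6.50, Kcnd2 by 5.77, Rims1 by 5.31 and Rasgrf2 by 4.74. For each of these 5 genes both LT-HSC KO libraries were above both LT-HSC WT libraries. Groups of 2 libraries are too small for a search for single outlying samples.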

How the results depend on the processing

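Of the LT-HSC and interaction counts of members called higher (171 and 139), those by RLE size factors, DESeq2 and no filter stayed within 1.5 times. With the density subtracted they were 20 and 13, and 17 for WT LT-HSC against MPP. This fall is in part built in, since members below the median of a library were set to 0 there. Members called lower were then 13 in LT-HSC, 4 in MPP, 12 in the interaction and 17 in WT. By DESeq2, 1 was lower in MPP and 2 in the interaction, and by RLE 1 in the interaction. Without the filter 1 was higher and 1 lower in MPP, 1 lower in the interaction, and 61 higher in WT. Leaving out 1 library gave 146 to 170 higher and 0 to 7 lower in LT-HSC, 0 to 1 higher and 0 lower in MPP, 98 to 147 higher and 0 to 1 lower in the interaction, and 43 to 90 higher and 4 to 12 lower in WT; a lone library was assumed to vary like the others.

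The labels give replicates only a number, with no shared animal or batch. With the replicate block 185 were higher and 12 lower in LT-HSC, 56 and 22 in MPP, 167 and 6 in the interaction and 127 and 12 in WT. The share of all genes called with this block is not given here, so these counts cannot be set against it. Deviations of same-numbered libraries correlated at 0.46 to 0.66 between groups, with 2 pairs. The LT-HSC log2 fold change of Il1rapl1 ran from -1.82 to 1.35 on leaving out 1 library, and the reversal, at 1.35, came without WT replicate 1; the cause was not tested.

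The density pooled over members, in CPM per kb for WT and KO of LT-HSC and then of MPP, was 0.0838, 0.138, 0.0613 and 0.0588. The median density was 0.0110, 0.0751, 0.00467 and 0.00501 over the 84 members of at least 800 kb, with KO over WT ratios of 6.80 and 1.07. Pooled ratios were 1.65 and 0.959. As deposited, the medians were 0.0729, 0.417, 0.0804 and 0.0989 counts per kb. Over the 164 members with a matching model and no nested protein-coding gene, an alternative chosen after seeing the data, they were 0.0134, 0.0798, 0.00656 and 0.00790, and 3 departed in LT-HSC KO. Leaving out 1 library gave 0.0139 to 0.0140, 0.0758 to 0.0841, 0.00665 to 0.00677 and 0.00739 to 0.00850, with KO over WT ratios of 5.44 to 6.03 in LT-HSC and at most 1.27 in MPP. At 3-fold, 57 departed in LT-HSC WT and 17 in LT-HSC KO. At 10-fold, 22, 1, 35 and 30 did in the 4 groups, and without 1 library 38 to 48, 8, 57 and 54 to 56. Depth limits members at a few counts, such as Kcnd2 in WT. Of the 68 fold changes of named members followed, 12 lost a call under at least 1 alternative and 20 gained one.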
